A study of Mus musculus with 6 samples.

Results

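The core circadian clock genes are the transcription factors and output genes that make up the daily oscillator of mammalian cells. They were taken here as 10 of 16943 named genes tested, Arntl (also named Bmal1), Clock, Per1, Per2, Per3, Cry1, Cry2, Nr1d1, Nr1d2 and Dbp. Every array probe whose RefSeq transcript belongs to one of them was used, which gave 11 probes out of 28689 probes tested, with 2 probes for Dbp and 1 for each other gene. All 11 were well above background on all 6 arrays, so none was lost to the filter on dim probes.

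RNA came from the mammary glands of female mice, all of them Trp53 knockouts (lacking the gene for the tumour suppressor p53) and all 8 weeks old. One group of 3 mice ate a high-fat diet and the other group of 3 a control diet, in both cases for 5 weeks from the age of 3 weeks. Each mouse has 1 single-colour array, and every animal in both groups carries the Trp53 deletion, so wild-type glands do not enter. The labels name glands as the tissue but epithelial cells in the sample descriptions, and they do not give the time of day at which tissue was taken.

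In the oscillator, ARNTL and CLOCK bind DNA as a pair at E-boxes and switch on the Per and Cry genes, the Nr1d genes and Dbp. PER and CRY proteins return to the nucleus and inhibit that pair, while the NR1D proteins (REV-ERBs) repress Arntl and Clock, so in a rhythmic tissue Arntl and the Per, Nr1d and Dbp transcripts peak at opposite times of day. Mammary gland has such a rhythm, and in mouse tissues high-fat feeding is known to alter it. Clock is the exception among these genes in that its transcript often cycles weakly.

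The promoters of the genes whose levels moved most closely together, Per1 with Cry2 and Nr1d1 with Dbp, are given first, with that of Per3, whose diets did not overlap, and that of Arntl, their activator. Each sequence is the 250 bases before an annotated transcription start in RefSeq on GRCm38.p6, read 5′ to 3′ on the gene's own strand. Capitals mark every match, on either strand, to 1 of 5 motifs searched: the E-box CACGTG, the E-prime box CACGTT, the D-box TTANGTAA, the ROR element TAGGTCA and the CRE half-site TGACG.
Per1, chr11:69098699-69098948, plus strand: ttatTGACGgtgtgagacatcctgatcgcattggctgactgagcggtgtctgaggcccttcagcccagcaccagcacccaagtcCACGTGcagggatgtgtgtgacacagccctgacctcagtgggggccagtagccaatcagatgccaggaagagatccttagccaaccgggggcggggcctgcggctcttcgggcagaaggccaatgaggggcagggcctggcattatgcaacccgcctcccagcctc
Cry2, chr2:92434070-92434319, minus strand: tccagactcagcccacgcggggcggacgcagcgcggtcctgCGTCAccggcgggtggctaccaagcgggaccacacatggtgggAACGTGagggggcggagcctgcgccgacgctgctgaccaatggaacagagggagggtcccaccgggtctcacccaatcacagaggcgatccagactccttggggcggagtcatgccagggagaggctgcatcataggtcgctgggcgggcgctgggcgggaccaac
Nr1d1, chr11:98775378-98775627, minus strand: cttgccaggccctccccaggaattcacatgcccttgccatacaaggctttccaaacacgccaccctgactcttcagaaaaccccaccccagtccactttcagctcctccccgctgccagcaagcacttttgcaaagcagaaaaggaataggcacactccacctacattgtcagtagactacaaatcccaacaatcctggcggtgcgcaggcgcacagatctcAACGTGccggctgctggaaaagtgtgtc
Dbp, chr7:45704997-45705246, plus strand: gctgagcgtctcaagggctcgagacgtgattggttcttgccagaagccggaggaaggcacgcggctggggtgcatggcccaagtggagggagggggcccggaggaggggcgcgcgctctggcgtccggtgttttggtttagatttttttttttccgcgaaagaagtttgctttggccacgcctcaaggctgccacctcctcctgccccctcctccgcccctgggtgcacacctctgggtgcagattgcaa
Per3, chr4:151044666-151044915, minus strand: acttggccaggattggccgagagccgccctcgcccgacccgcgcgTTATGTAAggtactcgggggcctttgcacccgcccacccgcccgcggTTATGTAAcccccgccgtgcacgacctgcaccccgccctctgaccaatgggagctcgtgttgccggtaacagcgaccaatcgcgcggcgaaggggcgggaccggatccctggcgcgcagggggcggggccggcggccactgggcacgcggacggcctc
Arntl, chr7:113207215-113207464, plus strand: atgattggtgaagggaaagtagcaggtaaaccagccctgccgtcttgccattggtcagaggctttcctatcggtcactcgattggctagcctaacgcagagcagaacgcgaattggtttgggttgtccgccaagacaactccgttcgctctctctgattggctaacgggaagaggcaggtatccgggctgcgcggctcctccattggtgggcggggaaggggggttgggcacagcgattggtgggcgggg

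The table of promoters held 9 of the 10 genes in 13 windows, without Per2. The Per1 window shown, 1 of 2 for this gene, has the E-box, the motif that ARNTL and CLOCK bind, at bases -166 to -161 from the start, and a CRE half-site, where CREB binds, at -246 to -242, while the other Per1 window has a CRE half-site at -132 to -128 and no E-box. In Cry2 an E-prime box lies at the same distance, -166 to -161, with a CRE half-site at -209 to -205. Nr1d1 has an E-prime box at -28 to -23, and Per3 has D-boxes, the sites of DBP and its relatives, at -205 to -198 and at -158 to -151. The Cry1 window has an E-box at -60 to -55, an E-prime box at -79 to -74 and a CRE half-site at -8 to -4. No match was found in the windows of Dbp, Arntl, Clock or Nr1d2, and the ROR element was in 0 of the 13 windows. Over 32851 promoter windows of the same length, 6.02% had the E-box, 3.85% the E-prime box, 2.06% the D-box, 2.23% the ROR element and 17.8% the CRE half-site. A match describes these letters only and does not show that a factor was bound.

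Levels below are log2 of the probe's signal over the 75th percentile of its array, and each difference is the high-fat mean less the control mean (n = 3 mice each). Levels are compared for 1 probe across arrays, and between probes only to pick the brighter probe of a gene or to mark dim probes. None of the 11 clock probes passed an adjusted p of 0.05 in limma's test across all probes, where 0.0174% of probes passed, 0 higher and 5 lower. At an unadjusted p under 0.05, 2 of the 11 (18.2%), Clock and Per3, passed in limma, and 13.8% of all probes did. The diets did not overlap for the same 2 probes, again 18.2% and both with high-fat above control, beside 17.5% of all probes (9.25% higher and 8.22% lower). Both shares lie near those of the array as a whole. The median difference of the 11 probes was -0.12, against 0.0089 over all probes, and their median size of difference was 0.29, against 0.21. By gene, 4 differences were positive (Clock, Per2, Per3 and Nr1d2) and 6 negative (Arntl, Per1, Cry1, Cry2, Nr1d1 and Dbp). A normexp background moved the median of all probes to 0.31. There Cry1 lay 0.086 above that median and Nr1d2 at -0.06 from it. Clock, at 0.32 with normexp, lay close to that median, while Per2 (0.89) and Per3 (0.88) lay above it.

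**Figure D1:**
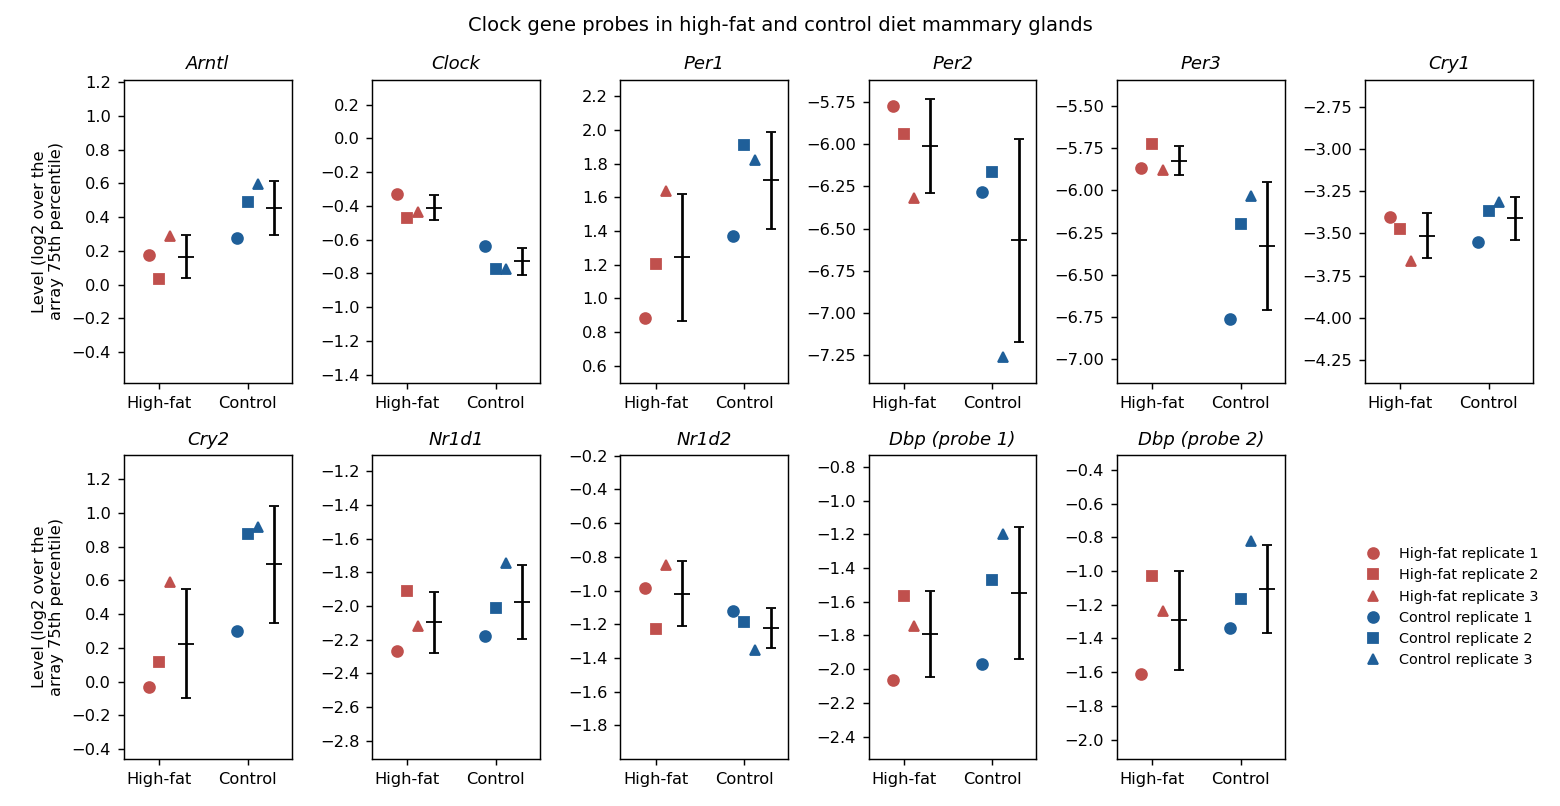
Level of each clock gene probe on each array (log2 of signal over the array's 75th percentile), high-fat left of control; every panel spans the same number of log2 units. Points are mice and bars are mean ± SD of 3 mice. Only Clock and Per3 show no overlap between the diets, with high-fat above control in both.

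The activators differed in opposite directions. Arntl, the DNA-binding partner of CLOCK (probe A_55_P2408588, transcript NM_007489), measured 0.17, 0.035 and 0.29 in high-fat replicates 1 to 3, against 0.28, 0.49 and 0.59 in control replicates 1 to 3. High-fat replicate 3 lay just above control replicate 1, so the diets overlapped. The means were 0.17 ± 0.13 with high-fat and 0.45 ± 0.16 with control (SD), a difference of -0.29 (SE 0.14, 95% interval -0.63 to 0.05) with an adjusted p of 0.393 in limma. Clock, the partner with histone acetyltransferase activity (A_52_P334670, NM_007715), measured -0.33, -0.47 and -0.43 in high-fat replicates, against -0.64, -0.78 and -0.77 in control replicates. All 3 high-fat values lay above all 3 control values, and the gap between the diets exceeded the spread inside either. The difference was 0.32 (SE 0.12, interval 0.04 to 0.60), that is 1.25-fold, with an unadjusted p of 0.0313 and an adjusted p of 0.345 in limma. On the single slide that held both diets, with high-fat replicates 2 and 3 and control replicate 1, the difference was 0.19 for Clock and -0.12 for Arntl.

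Among the PER genes, which encode the repressors that carry the CRY proteins, Per1 differed from Per2 and Per3 in sign. Per1 (A_55_P1970033, NM_011065) measured 0.89, 1.20 and 1.64 in high-fat replicates, against 1.37, 1.91 and 1.82 in control replicates. High-fat replicate 3 lay above control replicate 1, and the range over 6 arrays was 2.03-fold. The difference of -0.46 (SE 0.24, interval -1.04 to 0.13, adjusted p 0.418 in limma) became 0.05 on the slide that held both diets, where its sign turned.

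Per2, a PER gene whose loss disrupts daily rhythms in mice (A_51_P282760, NM_011066), measured -5.77, -5.94 and -6.32 in high-fat replicates, against -6.28, -6.17 and -7.26 in control replicates. High-fat replicate 3 lay below control replicates 1 and 2, and control replicate 3 was the lowest array. Per2 had the widest range of the 11 probes, 1.49 or 2.80-fold, and a difference of 0.56 (SE 0.32, interval -0.21 to 1.33, adjusted p 0.444 in limma), which was 0.22 without control replicate 3 and 0.16 on the shared slide. Per3, a PER gene that the core rhythm can do without (A_51_P258493, NM_011067), measured -5.86, -5.73 and -5.88 in high-fat replicates, against -6.76, -6.20 and -6.03 in control replicates. The 3 high-fat arrays lay close together (SD 0.08) and all above the control arrays, which were spread more widely (SD 0.38). The difference was 0.51 (SE 0.21, interval 0.0054 to 1.01), 1.42-fold, with an unadjusted p of 0.0482 and an adjusted p of 0.363 in limma. On the shared slide, whose control replicate 1 was the lowest array for Per3, it was 0.96, and over the other 5 arrays without that control it was 0.29.

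Both of these probes were dim. Per2 gave 36.1, 26.8 and 20.01 intensity units in high-fat replicates and 23.5, 18.5 and 8.996 in control replicates, and Per3 gave 33.9, 31.0 and 27.1 in high-fat replicates and 16.9, 18.1 and 21.1 in control replicates. The lowest signal counted as well above background was 11.4, 14.4 and 9.56 on the high-fat arrays and 7.82, 8.73 and 7.02 on the control arrays. Control replicate 3 therefore sat close to that limit for Per2.

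The CRY genes encode the direct inhibitors of the ARNTL and CLOCK pair. Cry1 (A_52_P420500, NM_007771) measured -3.40, -3.47 and -3.66 in high-fat replicates, against -3.55, -3.36 and -3.31 in control replicates, the narrowest range of the 11 probes at 0.35 or 1.28-fold. Its diets overlapped, and the difference was -0.10 (SE 0.13, interval -0.43 to 0.22, adjusted p 0.720 in limma). Cry2 (A_55_P2016540, NM_009963) measured -0.033, 0.12 and 0.59 in high-fat replicates, against 0.30, 0.87 and 0.92 in control replicates. As with Per1, high-fat replicate 3 lay above control replicate 1. The difference was -0.47 (SE 0.24, interval -1.05 to 0.11, adjusted p 0.407 in limma), and it turned to 0.06 on the shared slide.

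The NR1D genes, nuclear receptors that repress Arntl, had small differences between the diets. Nr1d1 (A_51_P223776, NM_145434) measured -2.27, -1.91 and -2.12 in high-fat replicates, against -2.18, -2.01 and -1.74 in control replicates. The difference of -0.12 (SE 0.17, interval -0.52 to 0.28, adjusted p 0.738 in limma) was smaller than the SD inside either diet (0.18 with high-fat and 0.22 with control). Nr1d2 (A_52_P303891, NM_011584) measured -0.99, -1.23 and -0.85 in high-fat replicates, against -1.12, -1.19 and -1.35 in control replicates. Its difference was 0.20 (SE 0.15, interval -0.15 to 0.56, adjusted p 0.528 in limma), with high-fat replicate 2 inside the control range.

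Dbp, a PAR bZIP factor that passes the rhythm on to output genes, is widely used as a marker of clock phase. Its brighter probe (A_55_P2032081, NM_016974) measured -1.61, -1.03 and -1.24 in high-fat replicates, against -1.34, -1.16 and -0.82 in control replicates. The other probe (A_55_P2032079) measured -2.06, -1.57 and -1.74 in high-fat replicates, against -1.97, -1.47 and -1.20 in control replicates. The differences were -0.18 (SE 0.21, interval -0.69 to 0.32) and -0.24 (SE 0.24, interval -0.82 to 0.33), with adjusted p-values of 0.678 and 0.631 in limma. Both probes put high-fat replicate 1 lowest and control replicate 3 highest, and they ran together across the 6 arrays with r = 0.94 (exact permutation p = 0.0069) and rho = 0.943 (exact permutation p = 0.0167). For Nr1d1 and for both Dbp probes the sign turned on the shared slide, to 0.17, 0.20 and 0.32.

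**Figure D2:**
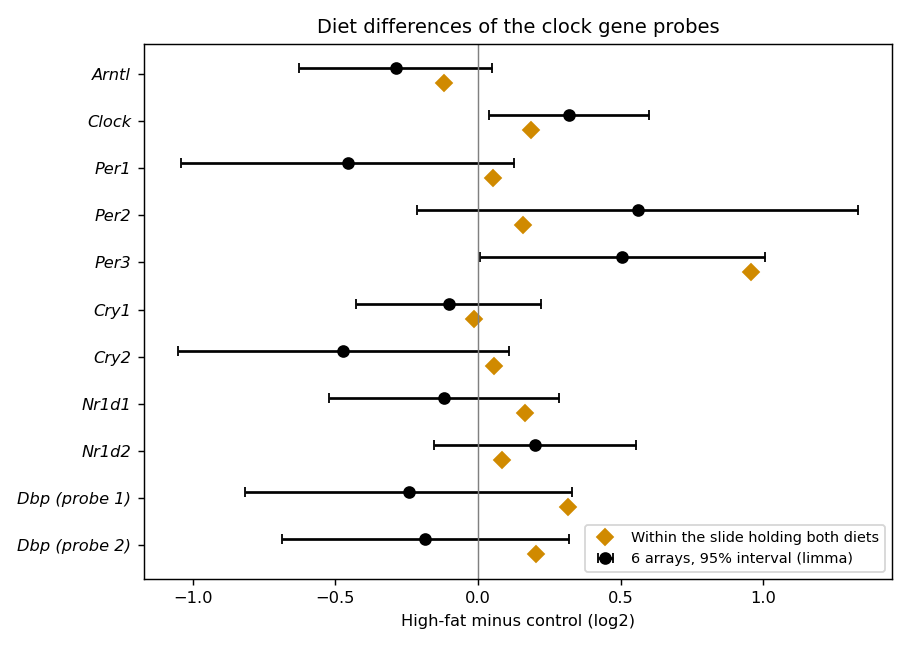
Difference of each clock gene probe, high-fat minus control (log2), with the 95% interval from limma over 6 arrays (black) and the difference inside the slide that held both diets (orange diamonds, no interval drawn). The intervals of Clock and Per3 alone exclude 0, and the diamonds of Per1, Cry2, Nr1d1 and both Dbp probes lie on the other side of 0 from the black points.

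Slide and diet overlapped only in part: high-fat replicate 1 was alone on 1 slide, and control replicates 2 and 3 shared another. Over all probes the arrays also fell into 3 pairs along the first principal component, which took 47.4% of the variance. Its score was -62.2 and -54.7 for high-fat replicates 1 and 2, 7.65 for high-fat replicate 3 beside 0.40 for control replicate 1, and 53.7 and 55.1 for control replicates 2 and 3. Across the 6 arrays that score correlated with Cry2 (r = 0.97), Per1 (0.96), Arntl (0.94), Clock (-0.88), Per2 (-0.75), Dbp (0.57), Nr1d1 (0.50), Per3 (-0.37), Nr1d2 (-0.37) and Cry1 (0.27). These are descriptions over 6 arrays that share the scaling to the 75th percentile. When limma used estimated array weights, 4 of the 11 clock probes (36.4%) passed an adjusted p of 0.05, where 23.9% of all probes did. They were Clock (difference 0.35), Arntl (-0.44), Per1 (-0.65) and Cry2 (-0.74), and they were the 4 genes with the closest correlation to that component. No array left out in turn brought a clock probe past the threshold, the lowest adjusted p in limma being 0.166.

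Whether activators and repressors oppose each other was read from 16 pairs across the 6 arrays, Arntl or Clock with each of the other 8 genes. Of the 16 correlations 8 were negative and 8 positive, 7 were negative for deviations from the diet means, and 8 were negative without the 2 arrays farthest from the activator's median. Arntl was negative with 3 of 8 (Per2, Per3 and Nr1d2) and Clock with 5 of 8 (Per1, Cry1, Cry2, Nr1d1 and Dbp). Across the 6 arrays each of these 8 genes was thus negative with 1 activator and positive with the other, as the activators ran against each other (r = -0.82). For deviations from the diet means Arntl was negative with 1 of 8 and Clock with 6 of 8. There Arntl turned positive with Per3 (r = 0.64) and with Nr1d2 (0.14), and Nr1d2 was positive with both activators. No pair passed an adjusted p of 0.05 over the 16 (lowest 0.244), and 3 had an unadjusted exact permutation p under 0.05. The slide that held both diets has 3 arrays, too few for a correlation inside it.

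Arntl ran with Cry2 rather than against it: r was 0.91 (exact permutation p = 0.0153, adjusted 0.244) and rho 0.943 (p = 0.0167), with r = 0.93 without high-fat replicate 2 and control replicate 3 and 0.84 for deviations from the diet means. With Per1 its r was 0.83 (exact permutation p = 0.0486, adjusted 0.250), rho 0.886 (p = 0.0333), and r was 0.91 without the same 2 arrays. Arntl and Per2 had r = -0.79 (exact permutation p = 0.0486, adjusted 0.250) and rho -0.771 (p = 0.103), and r was -0.46 without those 2 arrays, one of which holds the lowest Per2 value. Arntl and Nr1d1, its direct repressor, had r = 0.46 (exact permutation p = 0.353) and rho 0.429 (p = 0.419), and r was 0.96 without those 2 arrays. Arntl and Dbp had r = 0.47 (exact permutation p = 0.349) and rho 0.429 (p = 0.419). Their sign was positive in both cases.

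Clock ran against Per1 with r = -0.82 (exact permutation p = 0.0625) and rho -0.829 (p = 0.0583), and against Cry2 with r = -0.82 (p = 0.0833) and rho -0.771 (p = 0.103). Without high-fat replicate 1 and control replicate 2 these were -0.52 and -0.59. The other pairs of Clock had r of -0.64 with Dbp, -0.61 with Nr1d1, -0.48 with Cry1, 0.71 with Nr1d2, 0.67 with Per2 and 0.50 with Per3, the last of which was -0.78 for deviations from the diet means. The activators themselves ran against each other, with r = -0.82 (exact permutation p = 0.0514) and rho -0.657 (p = 0.175) across 6 arrays, which was -0.41 for deviations from the diet means. So the activators did not form 1 block opposite the other 8 genes on these arrays.

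**Figure D3:**
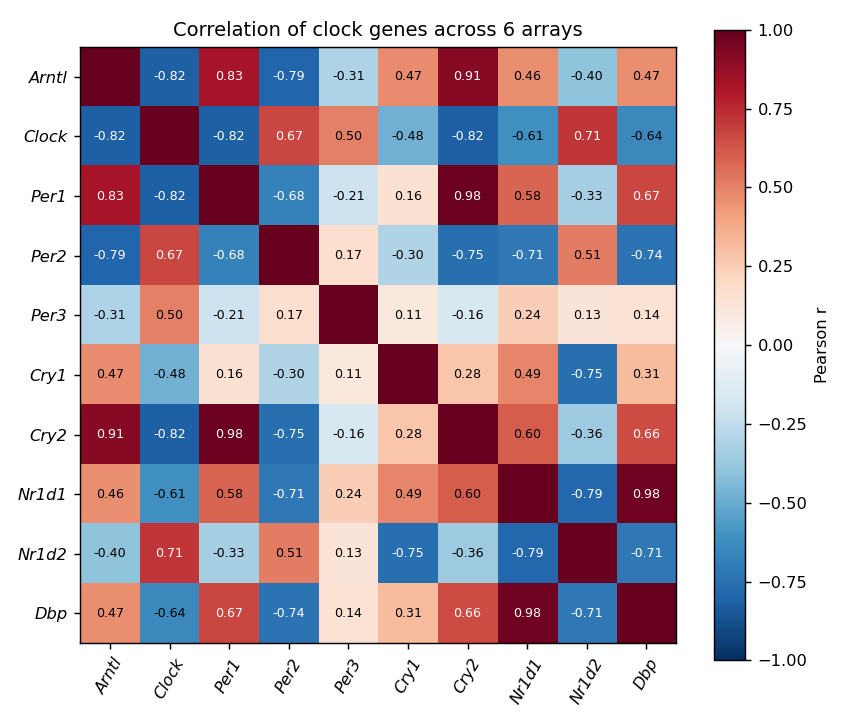
Pearson r across 6 arrays for every pair of the 10 clock genes (red positive, blue negative; the brighter probe of Dbp). Arntl is red with Per1 and Cry2 where Clock is blue, and Per1 with Cry2 and Nr1d1 with Dbp give the highest values, both 0.98.

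Over all 45 pairs of the 10 genes, 21 were negative and 24 positive, and the strongest lay among targets of the activators. Per1 and Cry2 had r = 0.98 (exact permutation p = 0.0028, adjusted over 45 pairs 0.0625) and rho 0.943 (p = 0.0167). The value was 0.99 without high-fat replicate 1 and control replicate 2 and 0.97 for deviations from the diet means. Nr1d1 and Dbp had r = 0.98 (exact permutation p = 0.0028, adjusted 0.0625) and rho 1 (p = 0.0028), with 0.99 without high-fat replicate 1 and control replicate 3 and 0.97 for deviations from the diet means. In order of level, both genes put high-fat replicate 1 lowest, then control replicate 1, high-fat replicate 3, control replicate 2, high-fat replicate 2 and control replicate 3, so the diets alternated along the order. Nr1d1 and Nr1d2, close relatives with similar roles, ran apart, with r = -0.79 (exact permutation p = 0.0625) and rho -0.829 (p = 0.0583).

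**Figure D4:**
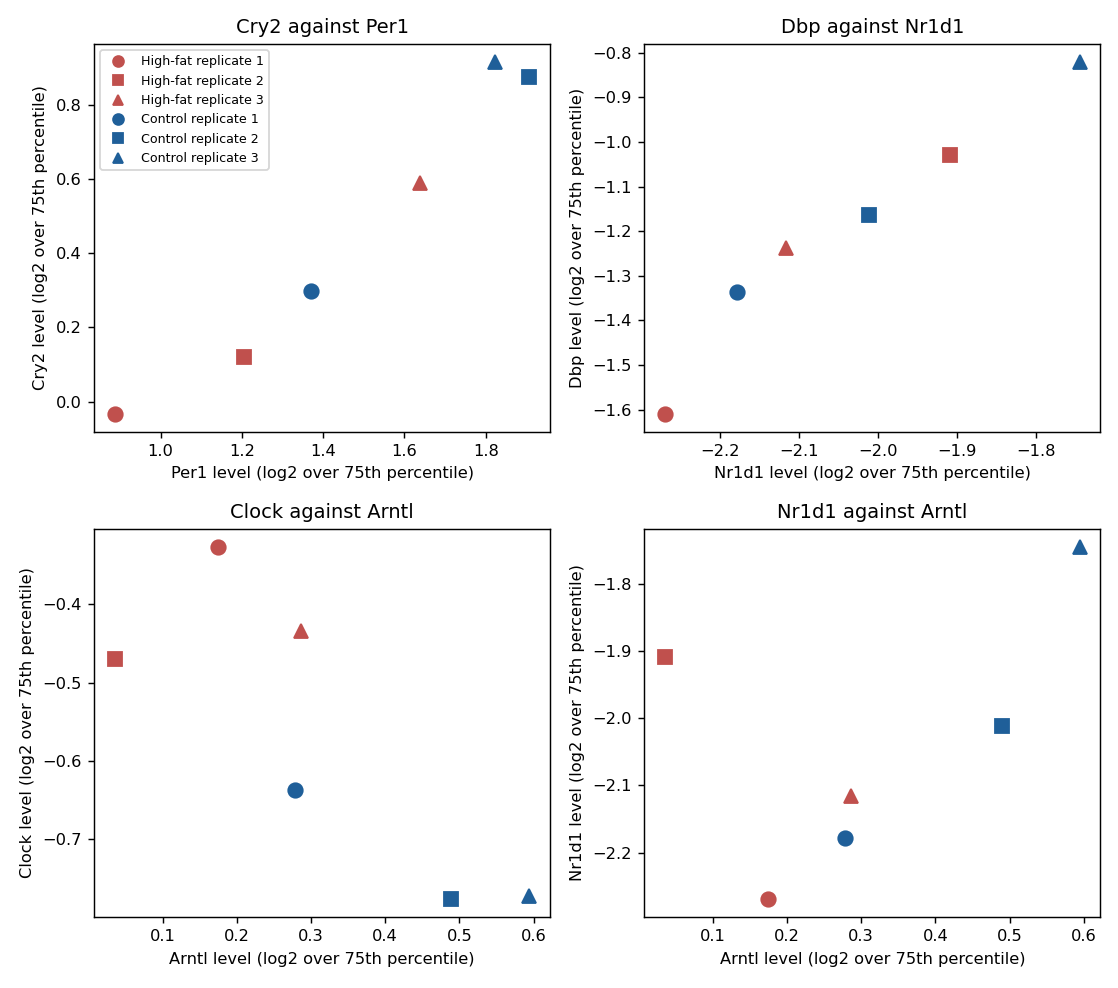
Levels of 2 clock genes against each other on the 6 arrays (log2 of signal over the array's 75th percentile; red high-fat, blue control, shape by replicate). Cry2 is higher where Per1 is higher, with high-fat replicates 1 and 2 lowest and control replicates 2 and 3 highest for both. Dbp is higher where Nr1d1 is higher, with the diets mixed along the line. Clock is lower where Arntl is higher, and high-fat replicate 2 stands off the line of Nr1d1 against Arntl.

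Markers of several cell types of the gland moved with some of these genes. Of 8 fibroblast markers 7 had negative differences (4 at an unadjusted p under 0.05 in limma, where 13.8% of all probes were, and 0 past the adjusted threshold), and their mean level ran from 2.93 to 4.08 on high-fat arrays and from 4.04 to 4.65 on control arrays. All 8 basal and myoepithelial markers had positive differences (6 at an unadjusted p under 0.05 in limma, 0 past the adjusted threshold), with means of 2.80 to 3.02 on high-fat and 1.77 to 2.14 on control arrays. The 8 luminal markers, also all positive (2 at an unadjusted p under 0.05 in limma), averaged 0.12 to 1.19 on high-fat and -0.37 to 0.51 on control arrays. Of 7 measured skeletal muscle markers 6 were negative (5 at an unadjusted p under 0.05 in limma), with means of -4.00 to -3.81 on high-fat and -2.99 to -2.52 on control arrays. White adipocyte markers (5 of 8 positive) averaged -4.57 to -4.20 on high-fat and -4.69 to -4.27 on control arrays, and macrophage markers (4 of 6 measured, 3 negative) -4.20 to -3.85 on high-fat and -4.00 to -3.53 on control arrays. Endothelial markers (4 of 6 positive) averaged -2.40 to -0.94 on high-fat and -2.73 to -1.87 on control arrays, and lymphocyte markers (5 of 8 measured, 3 positive) -2.35 to -2.15 on high-fat and -2.75 to -2.33 on control arrays. The epithelial marker Krt5 measured 6.06 ± 0.13 with high-fat and 4.79 ± 0.25 with control (SD). Epcam measured 2.56 ± 0.30 with high-fat and 1.77 ± 0.54 with control, and both were well above background on all 6 arrays. Of the adipocyte markers, Adipoq (difference 1.04) was well above background on 5 arrays and Pparg (difference -1.09) on all 6.

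Cry2 and Per1 followed the fibroblast mean across the 6 arrays, with r = 0.93 (exact permutation p = 0.0069) and rho 1 (p = 0.0028) for Cry2 and r = 0.92 (p = 0.0097) and rho 0.943 (p = 0.0167) for Per1. Arntl had r = 0.92 (exact permutation p = 0.0236) with the same mean and rho 0.943 (p = 0.0167). Without the 2 arrays farthest from the median fibroblast mean these were 0.90, 0.80 and 1.00, and for deviations from the diet means 0.89, 0.88 and 0.79. Against the luminal mean the same 3 genes had r of -0.96 for Cry2, -0.94 for Per1 and -0.90 for Arntl. Nr1d1 and Dbp followed the macrophage mean, with r = 0.95 (exact permutation p = 0.0069) and 0.94 (p = 0.0139) and rho 0.886 (p = 0.0333) in both, and 0.78 and 0.69 without the 2 farthest arrays. Clock followed the basal mean (r = 0.90, exact permutation p = 0.0458, rho 0.829 with p = 0.0583), but had 0.04 for deviations from the diet means. Per3 ran against the skeletal muscle mean, with r = -0.85 (exact permutation p = 0.0056, the smallest of all these relations) and rho -0.829 (p = 0.0583), -0.82 without the 2 farthest arrays and -0.75 for deviations from the diet means. Over the 80 relations of 10 genes with 8 lists the lowest adjusted p was 0.159. Fewer cells of a type and less RNA per cell cannot be told apart in these samples, and the part of cell makeup in the clock gene levels was not tested.

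**Figure D5:**
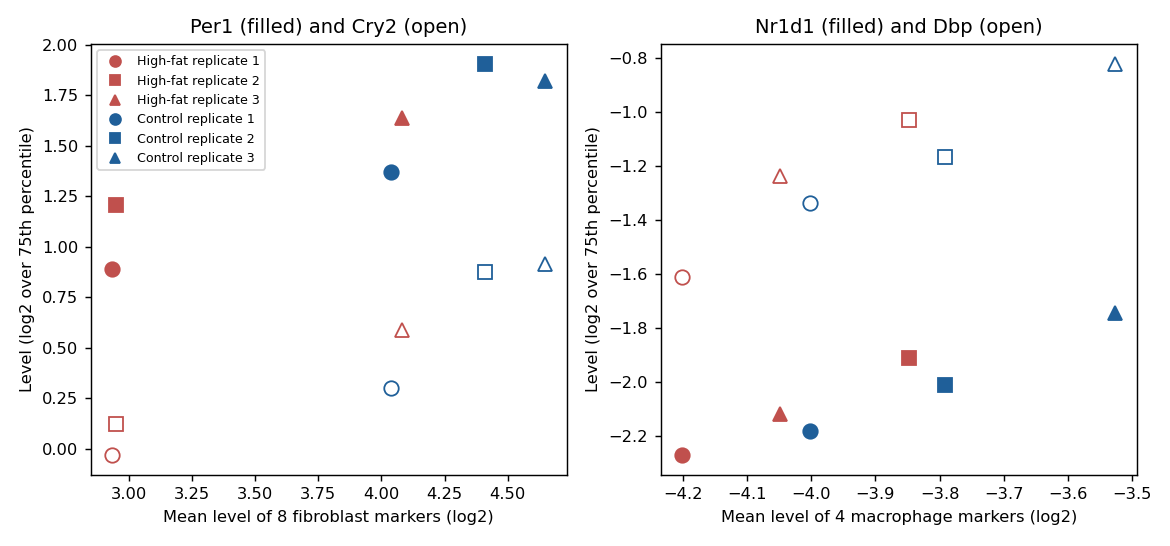
Left, levels of Per1 (filled) and Cry2 (open) against the mean level of 8 fibroblast markers; right, levels of Nr1d1 (filled) and Dbp (open) against the mean of 4 macrophage markers, all as log2 of signal over the array's 75th percentile (red high-fat, blue control). Per1 and Cry2 are lowest on high-fat replicates 1 and 2, where the fibroblast mean is lowest, and Nr1d1 and Dbp are highest on control replicate 3, where the macrophage mean is highest.

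The other genes of the pathway were read from 4 lists of 47 genes in all, each of which had a probe that was tested. None of their probes passed an adjusted p of 0.05 in limma (lowest 0.261). By the brightest probe of each gene, 3 were higher and 3 lower at an unadjusted p under 0.05, beside 6.77% and 6.99% of all probes, 24 differences were positive and 23 negative, and the diets did not overlap for 7 of the 47, beside 17.5% of all probes. Among 12 other clock transcription factors 6 were positive and 6 negative, with a median difference of -0.0078, and 4 of those 7 genes are among them. Arntl2, a paralogue of Arntl, measured -5.52, -5.75 and -5.57 in high-fat replicates, against -6.20, -6.47 and -7.31 in control replicates. The difference was 1.05 (SE 0.29, adjusted p 0.280 in limma), and its other probe, dimmer on average, gave 0.66. Both Arntl2 probes were dim. On control replicate 3 the first, at -7.31, sat close to the background limit. Rora, the nuclear receptor that activates Arntl at the element NR1D proteins repress, measured -2.44, -2.39 and -1.42 in high-fat replicates, against -1.32, -0.97 and -0.85 in control replicates, a difference of -1.04 (SE 0.30, adjusted p 0.30 in limma). Its relative Rorb had a difference of 0.72 (SE 0.25, adjusted p 0.334 in limma) on 1 probe and 0.27 on another, and Npas2, which can stand in for CLOCK, had -0.34 (SE 0.14, adjusted p 0.363 in limma). The Npas2 probe was dim as well, with levels from -6.49 to -5.89. For Rora as for Arntl, high-fat replicates 1 and 2 were the lowest arrays and replicate 3 was the highest of the high-fat arrays. Per1, Cry2, the fibroblast mean and the first principal component had that pattern too, so it is not particular to Rora and Arntl.

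Of 15 genes that modify or degrade clock proteins 7 differences were positive and 8 negative, and 0 had an unadjusted p under 0.05 in limma on the brightest probe of the gene. Csnk2a1, a subunit of casein kinase 2, has 4 probes with differences of 0.077 on the brightest, 0.14, 0.31 and 0.39 (SE 0.11, adjusted p 0.298 in limma), the last 3 with no overlap between the diets; it is named here after its values were seen. By brightest probe the smallest p belonged to Btrc, Fbxl21, Csnk1e and Nono. Btrc (-0.34, SE 0.17, and 0.077 on its other probe) is a ubiquitin ligase subunit that marks PER proteins for degradation. Fbxl21 (-0.40, SE 0.24, on a dim probe) is an F-box protein. Its other probe gave -0.98 but was well above background on only 4 of the 6 arrays. Csnk1e (0.23, SE 0.15, and 0.043 on its other probe) is a kinase of PER proteins, and Nono (0.14, SE 0.13) is a partner of PER proteins. Of 10 clock-controlled output genes 6 were positive and 4 negative, again with 0 under an unadjusted p of 0.05 in limma. Lpin1, a phosphatidate phosphatase, had 0.42 (SE 0.18) and Alas1, the first enzyme of haem synthesis, -0.26 (SE 0.21). Avp (0.94, SE 0.40) and Pck1 (0.38, SE 0.21) were well above background on 4 and 3 of the 6 arrays. Glucocorticoids set the phase of peripheral clocks and induce Per1 directly, and of 10 responsive genes 5 were positive and 5 negative. Mt2, a metallothionein, measured 5.45, 5.66 and 5.50 in high-fat replicates, against 7.57, 6.12 and 7.73 in control replicates, a difference of -1.61 (SE 0.42, adjusted p 0.267 in limma). Sult1a1, whose probe was dim, had 0.36 (SE 0.14), Ddit4 0.44 (SE 0.25) and Errfi1 -0.24 (SE 0.17), so this list did not move one way.

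Outside all these lists, the genes whose pattern across the 6 arrays was most like that of a clock gene were sought among 3708 probes with an SD of at least 0.5. Nearest to Arntl were Amy1 (r = 0.99), Myl3, Crispld1 and Lbh (each 0.98) and Phf11b (0.98), and 34 probes reached 0.95. Nearest to Nr1d1 were Wfdc17 (0.99), Clec4e (0.99), Lyve1 (0.97), Kbtbd11 (0.97) and Lilrb4a (0.96), with 6 probes at 0.95 or more. Clec4e and Lilrb4a are receptors of myeloid cells, and Lyve1 marks lymphatic endothelium and some macrophages. Lyve1 was close to or below the background limit on high-fat replicates 1 and 3 (-7.76 and -7.37) and control replicate 1 (-7.77), which limits its correlation. Wfdc17 measured -3.56, -2.21 and -2.99 in high-fat replicates, against -3.34, -2.42 and -1.34 in control replicates, the order of arrays seen for Nr1d1 and Dbp. These likenesses were picked from many probes over 6 arrays and are given as descriptions.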

How the data were processed

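The deposited scanner files hold, per the file headers, intensity on a linear scale for 44397 spots per array, read with Agilent Feature Extraction 11.0.1.1. They give a processed signal, already background-subtracted and spatially detrended, beside the median signals of spot and surround. The deposited table holds intensity values of 30608 probes divided by about the 75th percentile of their array (99.8% or more within 1% of 1 ratio), neither logged nor centred, although no label states this; medians by column were 0.134, 0.134 and 0.137 for high-fat and 0.134, 0.140 and 0.134 for control replicates 1 to 3. It served as an alternative. Labels give the groups and state biological replicates and random assignment of mice to diets.

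From the scanner files, control and outlier spots were removed and the remaining spots of a probe averaged; 111 of 39429 probes lacked a usable spot somewhere and were dropped. The log2 processed signal was taken relative to the array's 75th percentile, which ran from 1326 to 1973 intensity units. A probe was kept where at least 3 of 6 arrays had it well above background (28689 probes); 27203 to 29412 were so on single arrays and 0 were saturated. Names came from RefSeq accessions on GRCm38.p6 (27427 probes matched 1 symbol). The grid was annotated on mm9, so no probe coordinates are given.

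The diet comparison used limma 3.58.1 (R 4.3.3) (lmFit, eBayes, two-sided, Benjamini-Hochberg over all probes, threshold 0.05, no covariates). An exact permutation test of 3 mice against 3 cannot go below 0.1. Correlations over 6 arrays have exact two-sided permutation p-values (SciPy 1.17.1), adjusted over the 16, 45 or 80 relations computed. Where a gene had several probes, the brighter was used for correlations and lists. Genes, lists, tests and the rule for names were chosen with earlier results of these data known; the rule took every clock gene probe, the 4 genes of smallest p in a pathway list, 2 per marker list, and the 5 genes most like Arntl and like Nr1d1. The text names a selection of the marker genes. Scan times coincided with the 3 slides. Alternatives covered scaling, background, filter, probe rule, variance settings, weights, blocks, the deposited table and each array left out. On simulated data with 28689 probes the high-fat against control test recovered 35.8%, 77.9% and 87.0% of log2 changes of 1, 2 and 3, and 6.19% of its calls were false. The simulated noise was independent between probes, without a slide effect or variation shared by the probes of an array. Both shares therefore describe the simulation and need not hold for the real arrays. The number of arrays limits the precision.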

Additional observations from a re-analysis of the deposited data

How the results depend on the processing

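Over 20 alternatives the 11 clock gene probes gave 219 values, of which 208 kept their direction and side of the threshold, 4 passed it and 7 turned sign. The 4 came with array weights: Clock 0.35 (adjusted p 0.0387 in limma), Arntl -0.44 (0.0352), Per1 -0.65 (0.0371) and Cry2 -0.74 (0.0294). With a normexp background, where the median of all probes was 0.31, Nr1d1 was 0.16 and Cry1 0.40. Against that median Cry1 turned (0.086) and Nr1d1 did not (-0.15), and Clock (0.32) lay close to it. The slide as a block, which leaves the 3 arrays of 1 slide to compare the diets, turned Nr1d1 to 0.17, Per1 to 0.052, Cry2 to 0.056 and Dbp to 0.32 and 0.20. The cause of the turns with the slide block was not tested. The median difference of the clock probes, -0.12, was 0.16 with normexp, which is -0.15 against that setting's median of all probes, and 0.16 with the slide block, and ran from -0.22 to -0.034 with each array left out. Negative activator pairs, 8 of 16, numbered 7 to 9 in every setting tried. Across the 6 arrays Arntl and Clock ran against each other (r = -0.82). Each of the other 8 genes was negative with 1 of them and positive with the other, which makes the count 8. For deviations from the diet means Arntl and Clock had r = -0.41 and the count was 7, as Nr1d2 was positive with both. The steadiness of the count over settings therefore does not measure whether activators oppose repressors.

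Probes past the threshold over the whole array, 5, numbered 0 with normexp (1300 at an unadjusted p under 0.05), 0 without a filter (3935 unadjusted), 8 when all 6 arrays had to be well above background, 0 with the slide as a block (1487 unadjusted), and 6847 with array weights (3597 higher and 3250 lower). Leaving out each array gave 0 to 122, the highest without high-fat replicate 3 (15 higher and 107 lower) and 0 without any other array, against unadjusted counts of 1714 to 6877. As a block, the replicate number gave 0 (5181 unadjusted) and left the clock median at -0.12. Whether the numbers pair the samples was not settled: deviations from the diet means correlated by 0.34, -0.14 and 0.25 for replicates 1, 2 and 3. High-fat replicates 1 and 3 correlated best with their own number and high-fat replicate 2 did not. Deviations inside a diet of 3 arrays are tied to each other, so these values cannot decide it. Per2 and Per3 were near background, which limits their values. The lower Dbp probe is absent from the setting with 1 probe per gene.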
